A study of Mus musculus with 23 samples.

Results

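A set of 43 genes of mitosis and DNA replication was followed by RNA sequencing in mouse livers. Control mice were set beside mice that carry an activated *Braf* allele with 1 or 2 floxed *Icmt* alleles. The genes were chosen by name, with earlier results of these data known, and make up 43 of the 27179 genes in the count table. Of these, 29 act in mitosis and 14 act in DNA replication or in the supply of its nucleotides, and all 43 had reads. The livers came from 15 female mice, 6 Ctrl, 6 ABpIF/+ and 3 ABpIF/F, and 1 column of counts per mouse was used. All 3 groups carried Alb-Cre, a Cre recombinase under the albumin promoter that acts in hepatocytes, and 2 floxed *Trp53* alleles (TRP53 flx/flx). Ctrl mice had wild-type *Braf* and were ICMT flx/+. ABpIF/+ mice carried BrafCA/+, from which Cre produces BRAF V600E, and were ICMT flx/+. ABpIF/F mice carried BrafCA/+ and were ICMT flx/flx, so that both copies of *Icmt*, which encodes a methyltransferase of prenylated proteins, are lost in recombined cells. The sample labels write BRAF +/+ for both mutant groups, while the design text gives BrafCA/+. The study describes the sequenced tissue as free of visible tumors, the ABpIF/F mice as of unlike ages and all bearing liver tumors elsewhere, and ABpIF/+ mice as short-lived. The labels give no ages, so age, tumor burden and genotype cannot be told apart. Liver cells that do not arise from albumin-expressing cells keep their floxed alleles unrecombined in this model. The strain label of 5 of the 6 Ctrl mice differs from that of all mutants. Only the Ctrl mouse BG3 shares the strain label of the mutants, so strain and *Braf* genotype are told apart by that mouse alone. Hepatocyte markers (8 genes, among them *Alb*, *Ttr* and *Apoa1*) summed to 101429 to 140586 CPM in Ctrl livers and to 141231 to 261265 CPM in mutant livers, so these markers were high in every library. CPM are counts per 1000000 reads of a library whose total was scaled by TMM, edgeR's trimmed mean of M-values.

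A dividing cell first copies its DNA and then separates the copies. Replication origins are licensed in G1 by CDC6 and CDT1, which load the MCM2-7 helicase, and the E2F1 transcription factor drives many genes of this step. In mitosis, the kinase CDK1 with B-type cyclins, Polo and Aurora kinases, spindle motors, kinetochore proteins and the anaphase-promoting complex separate the chromosomes, and the transcription factor FOXM1 drives many of these genes. Adult hepatocytes rarely divide, many of them are polyploid, and they can replicate DNA without completing cytokinesis.

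Genes of mitosis and of replication are known to carry different promoter elements, and promoter windows are shown for some of the genes with the lowest p-values. RefSeq promoter windows on GRCm38, 250 bases before to 50 bases after the transcription start, were found for 36 of the 43 genes, 24 of mitosis and 12 of replication. Searched on both strands were the CCAAT box (CCAAT), the cell cycle homology region (CHR: TTTGAA or TTTAAA) and the E2F element (TTTCCCGC, TTTGGCGC, TTTCGCGC or TTTGCCGC). CCAAT was in the windows of 20 of 24 mitosis genes (83.3%), 7 of 12 replication genes (58.3%) and 41.1% of all 27025 genes with a window. CHR letters were in 21 of 24 mitosis genes (87.5%), 4 of 12 replication genes (33.3%) and 30.6% of all genes. The E2F element was in 1 of 24 mitosis genes (4.17%), 6 of 12 replication genes (50%) and 2.6% of all genes. Both CCAAT and CHR were in 19 of 24 mitosis genes (79.2%), 3 of 12 replication genes (25.0%) and 13.4% of all genes. These matches are letters in a window and were not tested for binding. Windows of 2 mitosis genes, *Top2a* (chr11:99024140-99024439, minus strand) and *Cdc20* (chr4:118437294-118437593, minus strand), and of 3 replication genes, *Mcm5* (chr8:75109259-75109558, plus strand), *Cdt1* (chr8:122567765-122568064, plus strand) and *Mcm6* (chr1:128359656-128359955, minus strand), are printed 5′ to 3′ on the gene's strand. Capitals mark the 3 kinds of element on either strand.
*Top2a*: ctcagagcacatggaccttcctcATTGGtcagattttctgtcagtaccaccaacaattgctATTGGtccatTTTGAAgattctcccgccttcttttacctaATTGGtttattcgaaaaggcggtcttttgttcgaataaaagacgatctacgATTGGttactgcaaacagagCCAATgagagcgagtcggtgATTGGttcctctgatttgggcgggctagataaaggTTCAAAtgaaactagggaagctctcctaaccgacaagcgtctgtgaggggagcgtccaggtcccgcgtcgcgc
*Cdc20*: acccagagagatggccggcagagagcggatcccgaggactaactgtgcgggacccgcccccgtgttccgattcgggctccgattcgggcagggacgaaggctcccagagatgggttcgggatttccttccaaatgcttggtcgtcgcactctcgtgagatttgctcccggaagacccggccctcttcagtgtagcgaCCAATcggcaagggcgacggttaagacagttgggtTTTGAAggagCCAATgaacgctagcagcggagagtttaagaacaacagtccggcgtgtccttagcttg
*Mcm5*: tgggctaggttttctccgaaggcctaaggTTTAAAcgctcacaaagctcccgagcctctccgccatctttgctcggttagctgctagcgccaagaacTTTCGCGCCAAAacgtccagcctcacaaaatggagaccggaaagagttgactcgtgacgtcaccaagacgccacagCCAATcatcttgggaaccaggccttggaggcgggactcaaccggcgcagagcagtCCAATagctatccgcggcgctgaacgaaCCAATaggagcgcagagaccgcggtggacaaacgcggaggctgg
*Cdt1*: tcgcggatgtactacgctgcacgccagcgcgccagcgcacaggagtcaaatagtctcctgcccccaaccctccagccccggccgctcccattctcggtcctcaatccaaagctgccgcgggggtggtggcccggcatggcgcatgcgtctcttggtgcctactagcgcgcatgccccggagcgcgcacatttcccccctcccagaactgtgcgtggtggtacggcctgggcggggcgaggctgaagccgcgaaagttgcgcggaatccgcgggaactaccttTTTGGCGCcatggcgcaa
*Mcm6*: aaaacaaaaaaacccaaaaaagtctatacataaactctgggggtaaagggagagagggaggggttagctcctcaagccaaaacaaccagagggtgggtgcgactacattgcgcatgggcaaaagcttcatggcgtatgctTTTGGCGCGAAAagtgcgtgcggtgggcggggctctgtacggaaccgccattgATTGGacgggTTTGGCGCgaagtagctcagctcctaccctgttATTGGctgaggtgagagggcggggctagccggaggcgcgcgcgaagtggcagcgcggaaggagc
The *Top2a* window held 6 CCAAT boxes and 2 CHR matches and no E2F element, and the *Cdc20* window held 2 CCAAT boxes and 1 CHR match. The *Mcm5* window held 3 CCAAT boxes, 1 CHR match and 2 E2F matches that overlap each other, and the *Mcm6* window held 2 CCAAT boxes and 3 E2F matches without a CHR. The *Cdt1* window held a single E2F element, 33 bases after the transcription start. Windows of *Plk1*, *Anln* and *Mcm7* were picked by the same rule and are not printed. The *Plk1* window held 1 CCAAT box and 3 CHR matches, and the *Anln* window held 2 CHR matches and no CCAAT box. The picked *Mcm7* window held 1 CCAAT box and no E2F element, while another *Mcm7* window held 2 E2F matches. The windows of *Nusap1*, *Melk*, *Tyms* and *E2f1* held none of the 3 elements.

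The libraries held 24742910 to 32262649 reads on genes. *Icmt*, the targeted gene, was at 27.8 to 34.7 CPM in Ctrl and 27.8 to 37.4 CPM in ABpIF/+ livers. In ABpIF/F livers 15.2 to 16.6 CPM remained, and the study could not exclude incomplete deletion. Calls needed a change of 2-fold or more in either direction (1 on the log2 scale) with an adjusted p under 0.01 in edgeR's quasi-likelihood F-test on all 27179 genes and 3 groups in 1 fit, with Benjamini-Hochberg adjustment. Nothing in the labels ties the mice to litters or days, and p-values measure the spread between the mice. A score over 14 circadian clock genes was between 0.0937 and 0.653 in all ABpIF/+ mice and in 5 Ctrl mice. It was -1.19 in the Ctrl mouse malpa387 and -0.56, -1.72 and -0.97 in the 3 ABpIF/F mice, so that only malpa387 had a low score without the ABpIF/F genotype.

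Levels are given per kilobase to compare genes and as sums to compare mice. Per kilobase of exon, the median level of the mitosis genes was 0.264 CPM in Ctrl, 0.0849 in ABpIF/+ and 0.343 in ABpIF/F livers. The replication genes had medians of 1.28, 0.877 and 1.505 CPM per kilobase. The highest level per kilobase in Ctrl livers was that of *Pcna*, the sliding clamp of DNA polymerases, at 11.3, and the lowest that of *Cenpf*, a kinetochore protein, at 0.0543. Summed over the 29 mitosis genes, the level per mouse was 39.0 to 61.9 CPM in Ctrl, 17.0 to 21.9 CPM in ABpIF/+ and 40.6, 53.2 and 63.8 CPM in ABpIF/F livers. Every ABpIF/+ mouse was below every mouse of the other groups in this sum, and the ABpIF/F mice overlapped Ctrl. The sum over the 14 replication genes was 104 to 132 CPM in Ctrl, 102 to 138 CPM in ABpIF/+ and 111 to 130 CPM in ABpIF/F livers, and the 3 groups overlapped. *Tk1* and *Pcna* made up 30.7% to 60.8% of the replication sum. Without these 2 genes it was 49.6 to 68.5 CPM in Ctrl, 52.4 to 61.6 in ABpIF/+ and 67.9 to 88.9 in ABpIF/F livers.

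**Figure D1:**
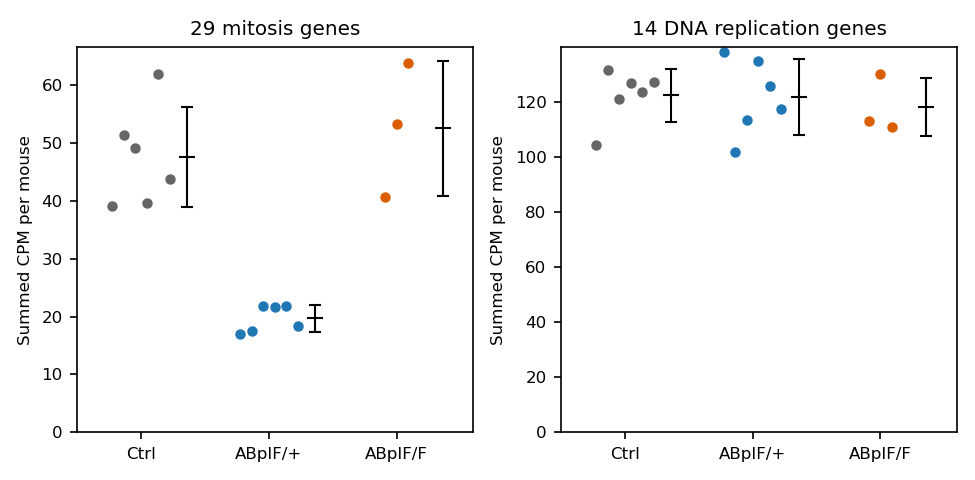
Summed CPM per mouse (y axis, linear from 0) of the 29 mitosis genes (left) and the 14 DNA replication genes (right) in Ctrl, ABpIF/+ and ABpIF/F livers, with 1 point per mouse and the mean ± SD beside the points. The mitosis sum lay between 17.0 and 21.9 CPM in ABpIF/+ mice and at 39.0 CPM or more in all others, while the replication sums overlapped.

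ABpIF/+ livers were first compared with Ctrl, both with 1 floxed *Icmt* allele. The groups differ in the *Braf* allele and, for 5 of the 6 Ctrl mice, in the strain label. Of the 29 mitosis genes, 20 fell, 0 rose and 9 did not pass the test, and their median log2 fold change was -1.85, against 0 over all 20380 genes with a read. Over all genes with a read 7.13% were called lower and 6.26% higher in this comparison. In 16 of the 29 genes every ABpIF/+ mouse was below every Ctrl mouse, which was the case for 10.8% of all genes with a read. The counts behind these values are low, with a median of 34.5 reads per gene and mouse in Ctrl and 8 in ABpIF/+ livers, and 7 of the 29 genes had under 20 reads in all 6 ABpIF/+ mice together, *Aurkb*, *Bub1*, *Ccnb1*, *Cenpf*, *Hmmr*, *Kif23* and *Melk*. In a fit with the strain label as a covariate, which sets the ABpIF/+ mice against BG3 alone, 9 of the 29 genes were called lower and the median was -1.96. The mouse BG3 was above every ABpIF/+ mouse in 25 of the 29 genes and in 26.9% of all genes with a read.

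**Figure D2:**
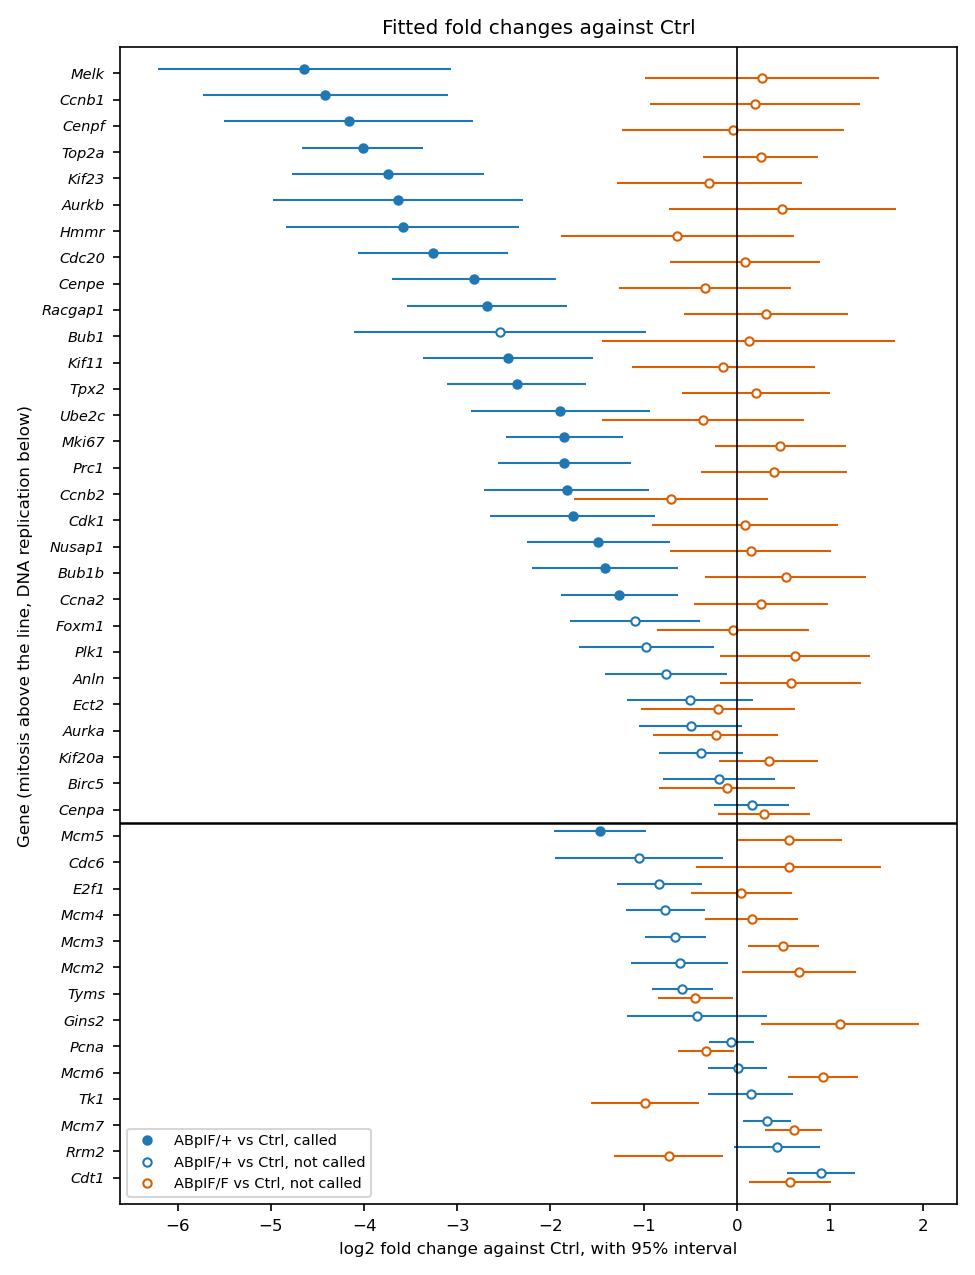
Log2 fold change against Ctrl (x axis) of each gene (y axis, mitosis above the line and DNA replication below), with 95% intervals, in ABpIF/+ (blue) and ABpIF/F livers (orange). Filled points were called. In ABpIF/+ livers 20 mitosis genes and *Mcm5* were called lower, and in ABpIF/F livers no gene of the set was called.

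Proliferation markers of chromosomes were low in every ABpIF/+ liver. *Mki67*, which encodes the Ki-67 protein that coats mitotic chromosomes and marks cycling cells, was at 3.61 to 7.99 CPM, with a median of 4.71, in Ctrl, at 0.528 to 2.24 CPM, with a median of 1.45, in ABpIF/+ and at 4.21, 6.22 and 10.7 CPM in ABpIF/F livers. All ABpIF/+ mice were below all others, and the log2 fold change against Ctrl was -1.85 ± 0.30 (SE, adjusted p = 7.21e-05). *Top2a*, topoisomerase II alpha, which untangles sister chromatids, was at 2.213 to 5.38 CPM, with a median of 3.41, in Ctrl, at 0.147 to 0.282 CPM, with a median of 0.216, in ABpIF/+ and at 2.58, 5.11 and 4.85 CPM in ABpIF/F livers. Here too all ABpIF/+ mice were below all others, the level being 16.2-fold lower in ABpIF/+ than in Ctrl livers (log2 fold change -4.02 ± 0.31, adjusted p = 2.16e-09), the lowest p-value of the set. The promoter windows of both genes held CCAAT and CHR letters.

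Of the 9 mitotic kinases, cyclins and their transcription factor, 6 fell. *Ccnb1*, cyclin B1, was at 0.409 to 1.34 CPM, with a median of 0.875, in Ctrl and 0.653, 1.07 and 1.27 CPM in ABpIF/F livers, and in ABpIF/+ livers it had reads in 2 of 6 mice, 6 reads in all. Its log2 fold change against Ctrl was -4.42 ± 0.63 (adjusted p = 1.16e-05). *Cdk1*, the kinase that cyclin B1 activates, was at 0.802 to 2.31 CPM, with a median of 1.75, in Ctrl, 0.0774 to 1.07 CPM, with a median of 0.346, in ABpIF/+ and 1.34, 1.54 and 2.6 CPM in ABpIF/F livers. The ABpIF/+ mice BG55 and BG88 were above the lowest Ctrl mouse, and the log2 fold change was -1.76 ± 0.43 (adjusted p = 0.00308). *Melk*, a kinase of dividing cells, was at 0.141 to 0.641 CPM, with a median of 0.428, in Ctrl and 0.424, 0.5 and 0.554 CPM in ABpIF/F livers. It had 2 reads in the 6 ABpIF/+ mice, both in mouse BG88, against 71 in Ctrl and 47 in the 3 ABpIF/F mice. The ratio of the read rates of Ctrl to ABpIF/+ was 34.5, with an exact 95% counting interval of 9.20 to 290.3, and the interval covers counting error only. *Aurkb*, the Aurora kinase of the chromosomal passenger complex, fell by 12.4-fold, *Ccnb2* by 3.54-fold and *Ccna2*, cyclin A2, by 2.39-fold.

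The other 3 of these genes did not pass the test. *Plk1*, Polo-like kinase 1, was at 0.459 to 1.19 CPM, with a median of 0.819, in Ctrl, 0.282 to 0.516 CPM, with a median of 0.458, in ABpIF/+ and 0.816, 1.18 and 1.77 CPM in ABpIF/F livers, with a log2 fold change of -0.97 ± 0.35 against Ctrl (adjusted p = 0.0433). *Foxm1* was at 0.641 to 1.46 CPM, with a median of 1.04, in Ctrl, 0.295 to 0.863 CPM, with a median of 0.376, in ABpIF/+ and 0.816, 1.43 and 0.831 CPM in ABpIF/F livers, and its log2 fold change of -1.09 ± 0.34 had an adjusted p of 0.0185. In both genes ABpIF/+ mice overlapped Ctrl, BG40, BG88 and BG30 in *Plk1* and BG40 and BG175 in *Foxm1*. *Aurka*, the spindle pole Aurora kinase, had a log2 fold change of -0.50 ± 0.26 and a 95% interval of -1.04 to 0.05.

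Spindle, checkpoint and kinetochore genes followed. All 4 spindle genes fell, *Hmmr* by 12-fold, the motor gene *Kif11* by 5.48-fold, *Tpx2*, an activator of Aurora A, by 5.13-fold and *Nusap1* by 2.8-fold. Of the 4 genes of the spindle checkpoint and the anaphase-promoting complex, *Cdc20*, the activator of the complex, fell by 9.58-fold (log2 fold change -3.26 ± 0.39, adjusted p = 9.84e-07), and *Ube2c* and *Bub1b* fell by 3.71-fold and 2.66-fold. *Bub1* had a log2 fold change of -2.54 ± 0.76 and missed the threshold (adjusted p = 0.0145), with 10 reads in all ABpIF/+ mice. *Cenpf* was at 0.409 to 1.2 CPM, with a median of 0.884, in Ctrl and 0.522, 1.04 and 0.886 CPM in ABpIF/F livers and had reads in 2 of 6 ABpIF/+ mice, 7 in all, with a log2 fold change of -4.17 ± 0.64 (adjusted p = 2.86e-05). *Cenpe*, a kinetochore motor, fell by 7.06-fold.

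Of the 6 genes of the central spindle and cytokinesis, 3 fell. *Kif23* and *Racgap1*, whose products form the centralspindlin complex, fell by 13.4-fold and 6.41-fold, and *Prc1*, which bundles the central spindle, fell by 3.6-fold. *Kif20a*, *Anln* and *Ect2* did not pass the test, with log2 fold changes of -0.39, -0.76 and -0.50. The exons of *Kif20a* share 29.3% of their bases with *Cdc23* on the other strand, those of *Ube2c* 22.8% with *Tnnc2*, of *Ccna2* 12.5% with *Exosc9* and of *Prc1* 11.1% with *Rccd1*, and reads of such pairs cannot be told apart where counting ignores strand.

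Intervals around 0 were found for a pair of kinetochore and centromere genes. *Birc5*, survivin, a partner of Aurora B, was at 1.12 to 2.12 CPM, with a median of 1.7, in Ctrl, 0.767 to 2.79 CPM, with a median of 1.47, in ABpIF/+ and 1.44, 1.54 and 1.74 CPM in ABpIF/F livers. These ranges overlapped in all 3 groups, and the log2 fold change of ABpIF/+ against Ctrl was -0.19 with a 95% interval of -0.79 to 0.41. *Cenpa*, the histone H3 variant of centromeres, was at 4.29 ± 1.18 CPM (SD, n = 6) in Ctrl and 4.78 ± 0.845 CPM (SD, n = 6) in ABpIF/+ livers, with an interval of -0.25 to 0.57. With *Kif20a*, these were the 3 mitosis genes not called whose interval lay within 1 of 0 on the log2 scale.

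**Figure D3:**
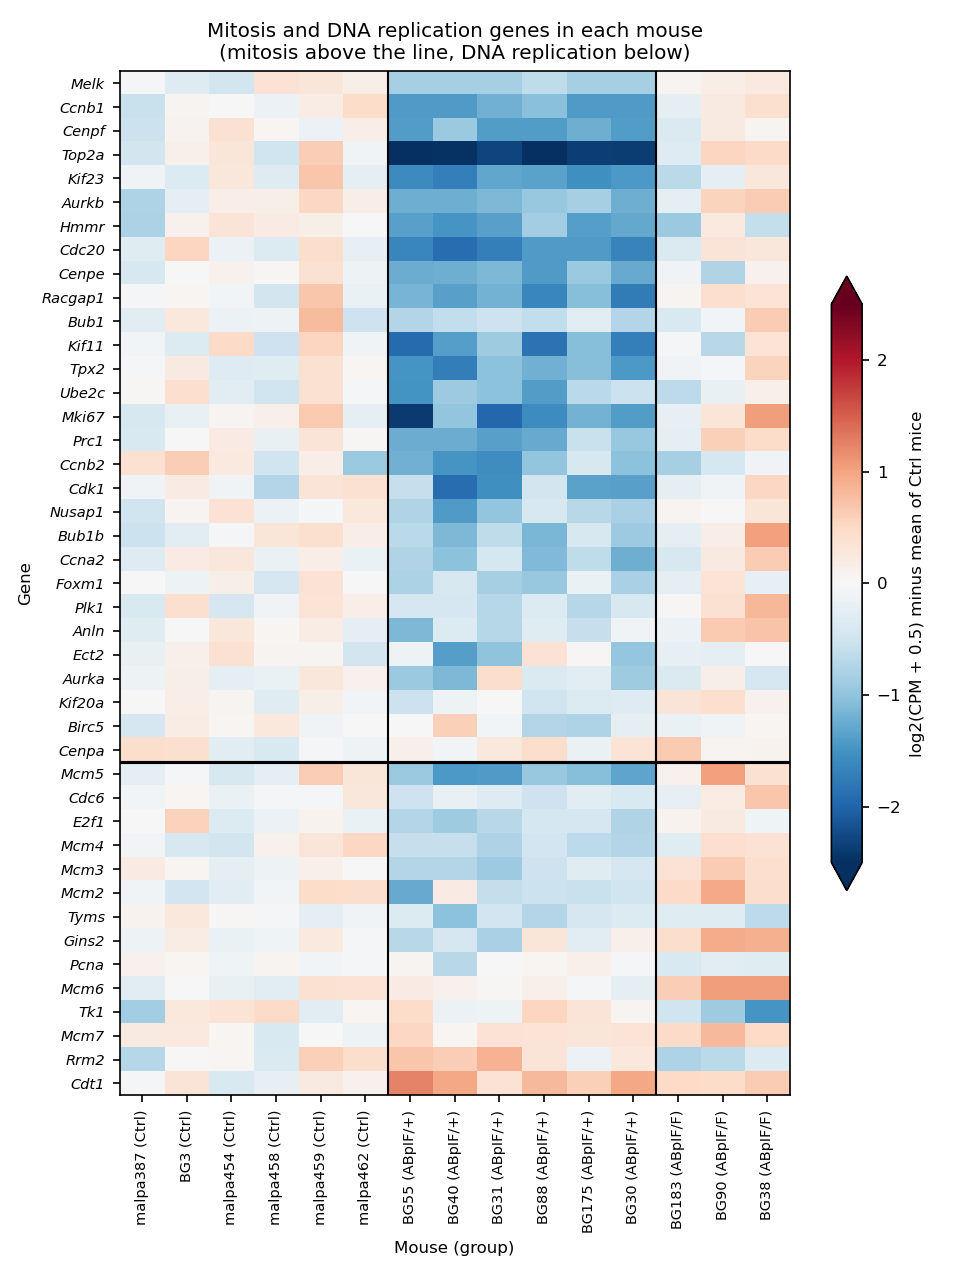
Level of each gene (rows, mitosis above the line and DNA replication below, each ordered by the fold change of ABpIF/+ against Ctrl) in each of the 15 mice (columns), as log2(CPM + 0.5) minus the mean of the Ctrl mice, in red where higher and in blue where lower. Most mitosis rows are blue in all 6 ABpIF/+ mice and near the Ctrl colour in the ABpIF/F mice, except *Birc5* and *Cenpa* among others, while the replication rows differ from gene to gene.

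Replication genes gave 1 call in ABpIF/+ against Ctrl livers. Of the 14 genes, 1 fell, 0 rose and 13 were not called, beside 7.13% of all genes with a read called lower and 6.26% higher. Their median log2 fold change was -0.51, or -0.18 with the strain label as a covariate. In 6 of the 14 genes every ABpIF/+ mouse was below every Ctrl mouse, as in 10.8% of all genes with a read. *Mcm5*, a subunit of the MCM2-7 helicase, was at 2.86 to 6.37 CPM, with a median of 3.57, in Ctrl, 1.16 to 1.85 CPM, with a median of 1.46, in ABpIF/+ and 4.34, 8.65 and 5.32 CPM in ABpIF/F livers. All ABpIF/+ mice were below all others, and the log2 fold change was -1.47 ± 0.24 (adjusted p = 5.67e-05). With the strain label as a covariate *Mcm5* was not called, and the 1 call was that of *E2f1*, which was highest in BG3. Another 5 genes, *Tyms*, *Mcm3*, *Mcm4*, *Cdt1* and *E2f1*, had an adjusted p under 0.01 with a change of under 2-fold.

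The log2 fold changes of the 6 helicase genes ranged from -1.47 to 0.33. *Mcm2* was at 2.38 to 4.97 CPM, with a median of 3.29, in Ctrl, 1.17 to 4.1 CPM, with a median of 2.23, in ABpIF/+ and 5.09, 7.25 and 4.93 CPM in ABpIF/F livers, and BG40 alone among the ABpIF/+ mice overlapped Ctrl (log2 fold change -0.61 ± 0.25, adjusted p = 0.0826). *Mcm3* and *Mcm4* had log2 fold changes of -0.66 ± 0.16 and -0.76 ± 0.20, with adjusted p-values of 0.00271 and 0.00616. *Mcm6* was at 5.93 to 9.76 CPM, with a median of 6.87, in Ctrl, 6.11 to 8.56 CPM, with a median of 7.79, in ABpIF/+ and 11.6, 15.8 and 15.6 CPM in ABpIF/F livers. Its ABpIF/+ and Ctrl ranges overlapped, with a log2 fold change of 0.01 and a 95% interval of -0.31 to 0.33. *Mcm7* had a log2 fold change of 0.33 ± 0.12 (adjusted p = 0.0583).

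Licensing, clamp and nucleotide genes were spread around 0. *Cdt1*, the MCM loading factor, was at 2.76 to 4.8 CPM, with a median of 3.86, in Ctrl, 4.96 to 9.51 CPM, with a median of 7.37, in ABpIF/+ and 5.48, 5.39 and 6.15 CPM in ABpIF/F livers. All ABpIF/+ mice were above all Ctrl mice, and its log2 fold change of 0.91 ± 0.18 had an adjusted p of 0.000392 but stayed under the 2-fold threshold. *Cdc6*, the other loading factor, was at 0.283 to 0.559 CPM in Ctrl and 0.111 to 0.271 CPM in ABpIF/+ livers, and the groups did not overlap (log2 fold change -1.04 ± 0.43, adjusted p = 0.0867). *Pcna* was at 25.3 to 29.1 CPM, with a median of 27, in Ctrl, 16.6 to 29.7 CPM, with a median of 27.7, in ABpIF/+ and 20.6, 22.6 and 21.8 CPM in ABpIF/F livers, with an interval of -0.30 to 0.19 for the log2 fold change of ABpIF/+ against Ctrl. *E2f1* was at 2.05 to 4.31 CPM, with a median of 2.54, in Ctrl, 1.24 to 1.89 CPM, with a median of 1.46, in ABpIF/+ and 2.9, 3.25 and 2.46 CPM in ABpIF/F livers, and every ABpIF/+ mouse was below every other mouse (log2 fold change against Ctrl -0.83 ± 0.22, adjusted p = 0.00606). *Rrm2*, the small subunit of ribonucleotide reductase, was at 3.05 to 8.4 CPM, with a median of 5.44, in Ctrl, 4.8 to 10.2 CPM, with a median of 7.64, in ABpIF/+ and 2.94, 3.14 and 4.1 CPM in ABpIF/F livers, and its ABpIF/+ and Ctrl ranges overlapped. *Tyms*, thymidylate synthase, was at 6.25 to 8.98 CPM, with a median of 7.37, in Ctrl, 3.4 to 5.8 CPM, with a median of 5.31, in ABpIF/+ and 5.97, 5.97 and 4.54 CPM in ABpIF/F livers (log2 fold change of ABpIF/+ against Ctrl -0.58 ± 0.16, adjusted p = 0.00705).

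**Figure D4:**
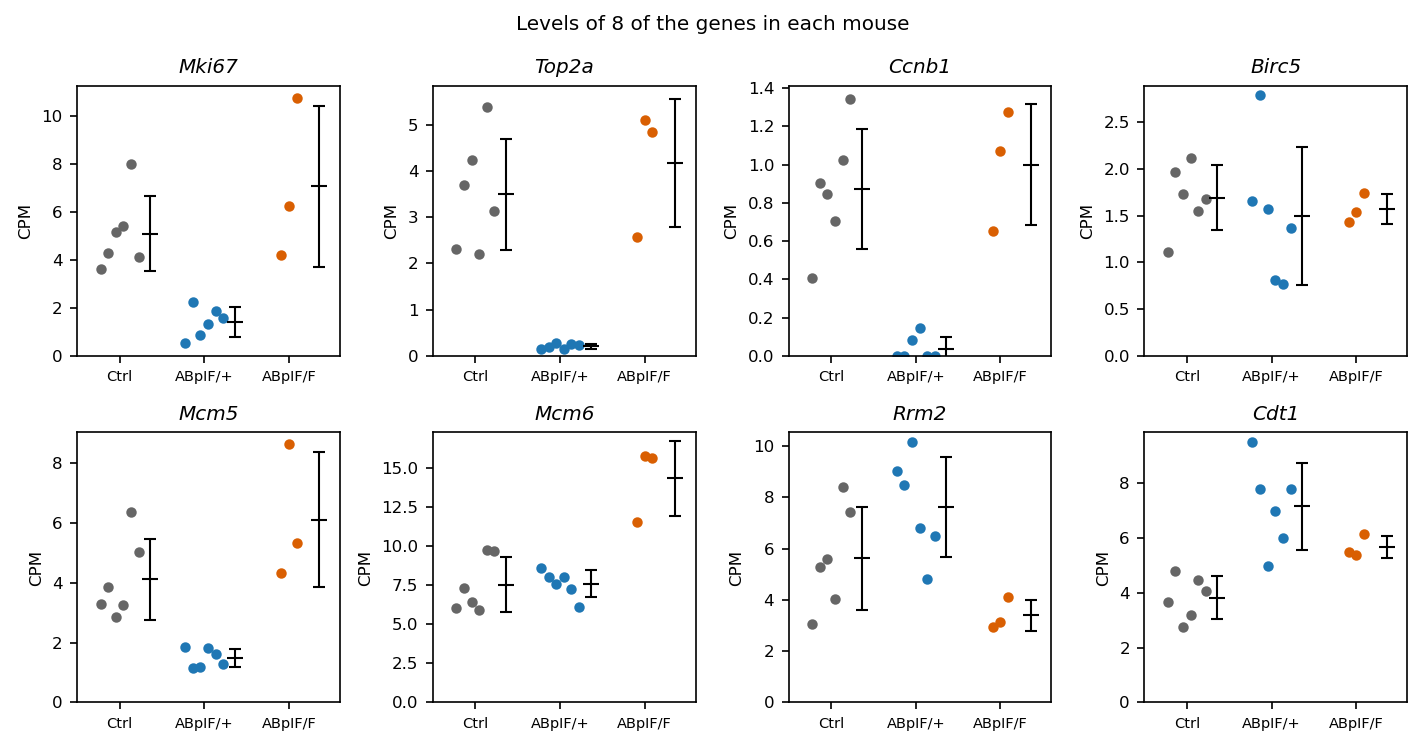
CPM (y axes, linear from 0, scaled per gene) of 8 genes of the set in each Ctrl, ABpIF/+ and ABpIF/F mouse, with 1 point per mouse and the mean ± SD beside the points. *Mki67*, *Top2a*, *Ccnb1* and *Mcm5* were lowest in all 6 ABpIF/+ mice, *Birc5* overlapped in all groups, *Mcm6* was highest in the 3 ABpIF/F mice, *Rrm2* was lower in them than in every ABpIF/+ mouse, and *Cdt1* was higher in every ABpIF/+ than in every Ctrl mouse.

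A list of 49 other mitosis genes and a list of 49 other replication genes were counted next. Like the 43 genes, they were chosen with earlier results of these data known, and they do not hold every other gene of these pathways. Of all genes with a read 7.13% were called lower and 6.26% higher. Of 49 other mitosis genes, 21 fell and 0 rose, with a median log2 fold change of -1.55, and 6 were called with the strain label as a covariate. The rule of the largest fitted falls named the checkpoint kinase gene *Ttk*, with 1 read in all ABpIF/+ mice against 85 in Ctrl, *Depdc1a*, with 0 against 21, and the kinesin gene *Kif18b*, with 2 against 47. The ratio of the read rates of Ctrl to ABpIF/+ was 82.6 for *Ttk*, with an exact 95% counting interval of 14.4 to 3299.6, and 22.8 for *Kif18b*, with one of 5.98 to 194. *Depdc1a* was ranked by a fitted value that rests on a group at 0, so its rank is uncertain. Set against a floor of 3 reads over the group, *Depdc1a* was at least 6.80-fold lower than in Ctrl. The list's median stayed at -1.55 with this gene at its bound. Of 49 other replication genes, 5 fell and 2 rose, with a median of -0.08, and 6 fell and 1 rose when libraries were scaled by their totals, which moved the median of all genes by -0.18. With the strain label as a covariate 4 were called. *E2f8*, a repressor of the E2F family, *Mcm10* and *Clspn*, claspin, fell, with log2 fold changes of -3.16, -3.02 and -3.09. *Brca1*, of DNA repair, and *Chaf1b*, of chromatin assembly, rose, with log2 fold changes of 1.42 and 1.07.

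Markers of other liver cells went both ways. Over all genes with a read 7.13% were called lower and 6.26% higher in ABpIF/+ against Ctrl livers. A count of 1 or 2 calls in such short lists is not read as a result about a cell type. In ABpIF/+ against Ctrl livers, 7 of 8 stellate and fibroblast markers fell (median log2 fold change -2.16), as did 5 of 9 macrophage, 3 of 10 lymphocyte and 2 of 7 endothelial markers (medians -1.05, -1.40 and -0.90). The stellate and fibroblast list holds the collagen genes *Col1a1*, *Col1a2* and *Col3a1*. By picrosirius red staining, the study reports more periportal collagen in ABpIF/+ livers than in Ctrl and less fibrosis in ABpIF/F livers. Marker RNA and stained collagen are unlike measures, and why they run in opposite directions was not tested. The summed level of the stellate and fibroblast markers was 216 to 285 CPM in Ctrl, 59.3 to 126 in ABpIF/+ and 239 to 383 in ABpIF/F livers. That of the macrophage markers was 373 to 510 CPM in Ctrl, 152 to 264 in ABpIF/+ and 312 to 761 in ABpIF/F livers. Lymphocyte markers summed to 4.45 to 8.24, 1.29 to 3.23 and 6.47 to 17.0 CPM, and endothelial markers to 154 to 233, 75.7 to 174 and 180 to 252 CPM, in the same order. Hepatocyte markers gave 2 calls higher of 8, with a median of 0.73, and cholangiocyte markers 2 higher and 1 lower of 7 (median -0.31). Neutrophil markers gave 1 call higher of 7 (median 2.04), and erythroid markers 2 higher and 1 lower of 7 (median 1.02). The sums of cholangiocyte markers were 49.4 to 87.9, 54.7 to 176 and 236 to 1195 CPM, those of neutrophil markers 0.636 to 1.93, 2.30 to 7.52 and 2.28 to 70.5 CPM, and those of erythroid markers 48.9 to 115, 130 to 290.1 and 79.4 to 110 CPM. Of the neutrophil markers, *Ly6g* had 0 reads in Ctrl livers. In bulk tissue, fewer cells of a type and less RNA per cell cannot be told apart, and the part of the other liver cells in the mitosis result was not tested.

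**Figure D5:**
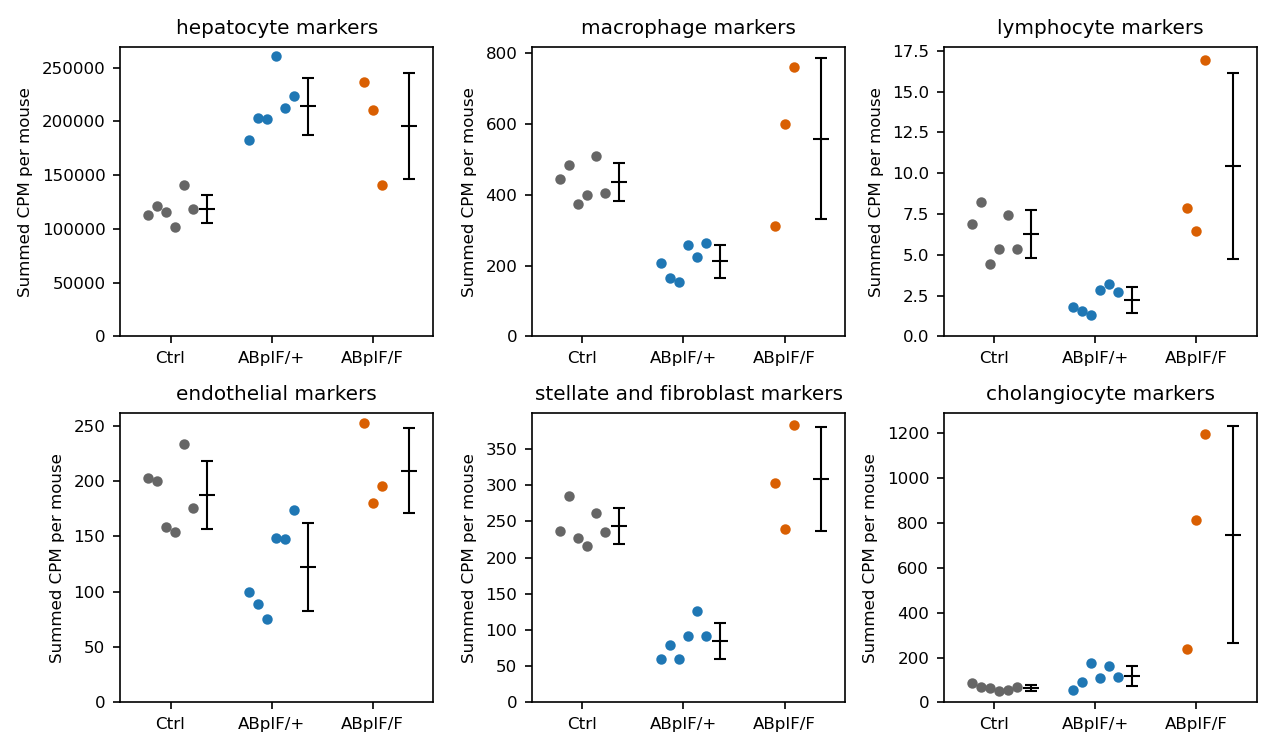
Summed CPM (y axes, linear from 0) of the markers of 6 liver cell types in each Ctrl, ABpIF/+ and ABpIF/F mouse, with 1 point per mouse and the mean ± SD beside the points. Macrophage, lymphocyte, and stellate and fibroblast sums were lower in every ABpIF/+ mouse than in every mouse of the other groups, and hepatocyte sums were higher in every ABpIF/+ than in every Ctrl mouse.

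Whether ABpIF/F livers differed from Ctrl was asked next. Of the 29 mitosis genes 0 were called in ABpIF/F against Ctrl, and 0 had an unadjusted p under 0.05 by edgeR's quasi-likelihood test, with DESeq2 also calling 0. The median log2 fold change was 0.15, against 0.09 over all genes with a read, with a range of -0.70 to 0.63. Over all genes with a read 6.06% were called higher and 3.17% lower. The 95% interval lay within 1 of 0 on the log2 scale in 8 of the 29 genes, while 9 intervals reached a 2-fold lower level and 14 a 2-fold higher one. The interval was -0.23 to 1.17 for *Mki67*, -0.36 to 0.87 for *Top2a* and -0.90 to 1.08 for *Cdk1*. The 3 ABpIF/F mice were not alike, BG38 being the highest of them in 19 of the 29 genes and BG183 the lowest in 22, and without BG38 the median was -0.08.

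Replication genes gave 0 calls of 14 in ABpIF/F against Ctrl livers, with DESeq2 also calling 0, but 2 were called without BG183. By edgeR's quasi-likelihood test 11 had an unadjusted p under 0.05, 7 of them higher and 4 lower. The share of all genes under this unadjusted p was not counted, so these 11 are not read as particular to replication genes. All 6 helicase genes had log2 fold changes above 0, between 0.16 and 0.93. *Mcm6* and *Mcm7* had adjusted p-values of 0.000692 and 0.00491 with changes under 2-fold, their log2 fold changes being 0.93 ± 0.18 and 0.61 ± 0.15. Every ABpIF/F mouse was above every Ctrl mouse in both genes. All 3 nucleotide genes had log2 fold changes below 0, -0.98 for *Tk1*, thymidine kinase 1, -0.73 for *Rrm2* and -0.45 for *Tyms*, with adjusted p-values of 0.0188, 0.0849 and 0.136. *Gins2*, a partner of the MCM helicase, had a log2 fold change of 1.11 ± 0.41 (adjusted p = 0.0689), but 67.3% of its exon bases are shared with *Gse1* on the other strand. Of the 49 other mitosis genes 2 fell, *Cenpm* and *Spc24*, both of the kinetochore, with log2 fold changes of -2.79 and -1.59. Of the 49 other replication genes *E2f2* rose (1.64) and *Mcm10* fell (-2.72). Among all genes with a read 3.17% were called lower and 6.06% higher in this comparison. With the clock score as a covariate, 1 other mitosis gene and 0 other replication genes were called in ABpIF/F against Ctrl. Of the 7 cholangiocyte markers 5 rose and of the 7 neutrophil markers 6 rose in these livers, 1 marker each of the lymphocyte, endothelial, and stellate and fibroblast lists rose, 2 of 8 hepatocyte markers rose, and 0 macrophage and 0 erythroid markers were called, with 2 of 9 and 1 of 7 at an unadjusted p under 0.05 and 0 called by DESeq2.

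The last comparison set the 2 mutant groups against each other, all of 1 strain label and differing in the second *Icmt* copy. Of the 29 mitosis genes 19 were lower in ABpIF/+ than in ABpIF/F livers, 0 were higher, and the median log2 fold change was -2.25, against -0.05 over all genes with a read. Over all genes with a read 7.32% were called lower and 2.35% higher. In 19 of the 29 genes every ABpIF/+ mouse was below every ABpIF/F mouse, as in 12.7% of all genes with a read. Of the genes lower than in Ctrl, 18 were also lower than in ABpIF/F livers, *Ccnb2* and *Ube2c* were called against Ctrl alone and *Plk1* against ABpIF/F alone. The 2 comparisons share the ABpIF/+ mice. The largest differences were those of *Melk*, *Ccnb1* and *Top2a*, at log2 fold changes of -4.91 ± 0.81, -4.61 ± 0.68 and -4.27 ± 0.34 (adjusted p = 0.000184, 6.57e-05 and 1.25e-07). From the reads of *Melk* alone, the rate in ABpIF/F was 40.9 times that in ABpIF/+ livers, with an exact 95% counting interval of 10.7 to 348. For *Mki67*, *Cdc20* and *Aurkb* the log2 fold changes were -2.32, -3.35 and -4.13. *Birc5*, *Cenpa* and *Aurka* were at -0.08, -0.13 and -0.27 and were not called. Without the ABpIF/F mouse BG38, 12 mitosis genes were called and the median was -1.72. With the clock score as a covariate, a setting chosen after the data were seen, 6 were called and the median was -2.61.

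The calls of replication genes went both ways in this comparison, while most of the genes had lower levels in ABpIF/+ livers. Of the 14 genes 3 were called lower and 2 higher. Beside this, 7.32% of all genes with a read were called lower and 2.35% higher. The log2 fold change was below 0 in 10 of the 14, with a median of -0.90, against -0.05 over all genes with a read. In 7 of the 14 every ABpIF/+ mouse was below every ABpIF/F mouse, as in 12.7% of all genes with a read. *Mcm2*, *Mcm3* and *Mcm5* were lower in ABpIF/+ than in ABpIF/F livers, with log2 fold changes of -1.28 ± 0.29, -1.16 ± 0.18 and -2.03 ± 0.27 (adjusted p = 0.0033, 0.000128 and 2.39e-05). *Rrm2* and *Tk1* were higher, at 1.16 ± 0.29 and 1.13 ± 0.28 (adjusted p = 0.00577 and 0.00807). Libraries were also scaled by their totals without TMM, which moved the median of all genes by -0.19 in this comparison. Neither gene was then called higher, and the calls were 0 higher and 7 lower. Both calls were also lost when BG55, BG38 or BG90 was left out. The *Tk1* call was lost as well without BG175, BG30, BG88, BG3 or malpa462, and the *Rrm2* call without BG31, BG40 or BG183. *Tk1* was at 18.8 to 48.5 CPM, with a median of 38.8, in Ctrl, 31.5 to 51 CPM, with a median of 40.1, in ABpIF/+ and 24.4, 18.6 and 12.2 CPM in ABpIF/F livers, and all ABpIF/F mice were below all ABpIF/+ mice. Its exons share 83 bases, 1.60% of its exon bases, with *Afmid* on the other strand, which was at 104 to 179 CPM in Ctrl, 145 to 213 CPM in ABpIF/+ and 48.9 to 95.1 CPM in ABpIF/F livers. Whether reads of *Afmid* entered the *Tk1* counts was not tested, since the strand setting of the counting is not given in the sources used here. *Mcm6* and *Mcm4* had adjusted p-values of 0.000921 and 0.00803 with log2 fold changes of -0.92 and -0.93, under the 2-fold threshold. Without the ABpIF/F mouse BG90, 2 replication genes were called, and with the clock score as a covariate 0 were called, with a median of -0.80.

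The 2 lists of other genes were compared in the same way, beside the 7.32% of all genes with a read called lower and the 2.35% called higher. Of the 49 other mitosis genes 20 were lower and 1 higher in ABpIF/+ than in ABpIF/F livers, with a median log2 fold change of -1.52, which was the same with *Depdc1a* at its bound of at least 18.6-fold. *Depdc1a*, *Ttk* and *Troap*, a spindle protein, had the largest fitted differences, with 0, 1 and 3 reads in all ABpIF/+ mice against 32, 42 and 42 in ABpIF/F, and *Spc24* was the gene that was higher (1.02). The ratio of the read rates of ABpIF/F to ABpIF/+ was 73.1 for *Ttk*, with an exact 95% counting interval of 12.4 to 2955, and 24.4 for *Troap*, with one of 7.79 to 123. Without BG38, 8 of the other mitosis genes were called, 11 in a fit of the 2 mutant groups alone and 0 with the clock score as a covariate. Of the 49 other replication genes 5 were lower and 1 higher, with a median of -0.30, and 1 was called with the clock score as a covariate. *Clspn*, *Cdc7*, the kinase that fires origins, and *E2f8* were lower (-4.28, -2.73 and -2.42), and *Gmnn*, geminin, the inhibitor of CDT1, was higher, at 15.7 ± 3.78 CPM (SD, n = 6) against 5.09 ± 1.45 CPM (SD, n = 3) and a log2 fold change of 1.62 ± 0.23 (adjusted p = 4.51e-05). Of the markers of other cells, 7 of 8 stellate and fibroblast, 6 of 9 macrophage, 5 of 10 lymphocyte, 5 of 7 cholangiocyte, 3 of 7 neutrophil and 2 of 7 endothelial genes were lower in ABpIF/+ than in ABpIF/F livers, 1 of 7 erythroid genes was higher, and 0 of 8 hepatocyte genes were called, with 5 of 8 at an unadjusted p under 0.05 and 0 called by DESeq2. Their part in the difference of the mitosis genes was not tested.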

How the data were processed

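RNA from 15 livers was made into stranded poly(A) libraries and sequenced as paired ends. According to the processing notes the authors aligned reads to mm10 with HISAT2 and counted them with featureCounts version 2.0.8. The deposited values used here are raw counts per gene, and the annotation and strand setting of the counting are not given in the sources used here. The 23 samples in GEO name 15 mice, 8 of them in 2 samples each, and 1 column of counts was used per mouse. Another deposited table repeats the counts, and 5 of its columns, named by bare numbers, were not used. Each library held 24742910 to 32262649 counts, and intervals from counts cover counting error only.

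Counts were fitted in edgeR 4.0.16 (R 4.3.3) with TMM scaling, robust quasi-likelihood F-tests and Benjamini-Hochberg adjustment over 27179 genes. Calls required an adjusted p under 0.01 with a change of 2-fold or more. The SE was taken as the log2 fold change over the square root of F. The script was tested on simulated data. The members and lists were chosen with earlier results of these data known. Any member could be named, with values in every mouse for 15 of them and for the 3 called genes with the largest change per comparison and direction. Of the other lists, up to 3 called genes per comparison and direction were named. Promoters were those of the 2 mitosis and 2 replication genes with the lowest p against Ctrl in either mutant group, and 3 that fit this rule were not printed. Alternatives were DESeq2 1.42.0, other scalings, filters and thresholds, the strain label or clock score as a covariate, only the compared groups, no robust estimation and each mouse left out. Exon overlaps come from GENCODE M21 and promoter windows from RefSeq on GRCm38.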

Additional observations from a re-analysis of the deposited data

Results flagged for a closer look

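Among the levels of the 43 genes and their sums in the Ctrl and ABpIF/+ groups of 6 mice, 7 of 90 had 1 mouse far from the other 5 by Dixon's test, and chance flags about 1 in 20. *Melk* was at 0.0737 CPM in ABpIF/+ mouse BG88 and at 0 in the other ABpIF/+ mice. *Hmmr* was highest among ABpIF/+ mice in BG88, at 0.258 CPM, and the next mouse was at 0.0682 CPM. *Cenpf* was highest in ABpIF/+ mouse BG40, at 0.193 CPM, with the next mouse at 0.0640 CPM. These values rest on few reads. *Pcna* was lowest in ABpIF/+ mouse BG40, at 16.6 CPM, and the other 5 lay between 26.3 and 29.7 CPM. In Ctrl livers, *Hmmr* was lowest in malpa387, at 0.298 CPM, against 0.895 to 1.24 CPM in the others. *E2f1* was highest in BG3, at 4.31 CPM, against 2.05 to 2.89 CPM, and *Racgap1* was highest in malpa459, at 2.39 CPM, against 0.802 to 1.35 CPM.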

How the results depend on the processing

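No called gene of the set changed direction under any alternative tried. With the strain label as a covariate, ABpIF/+ against Ctrl gave 9 mitosis, 1 replication (*E2f1* in place of *Mcm5*), 6 other mitosis and 4 other replication calls and a replication median of -0.18. A threshold of 2 on the log2 fold change in either direction gave 12 mitosis, 0 replication and 4 other replication calls in this comparison, 1 other mitosis and 1 other replication call in ABpIF/F against Ctrl, and 1 replication call in ABpIF/+ against ABpIF/F. At an adjusted p under 0.05 with any fold, replication and other replication genes gave 6 and 19, 3 and 10, and 10 and 16 calls in the 3 comparisons. DESeq2 called 11 other replication genes in ABpIF/+ against Ctrl. Scaling by library totals called 2 replication genes in ABpIF/+ and 1 in ABpIF/F against Ctrl, and edgeR's filter on low counts called 1 in ABpIF/F against Ctrl. With the clock score as a covariate, chosen after the data were seen, ABpIF/F against Ctrl gave 1 other mitosis and 0 other replication calls, and ABpIF/+ against ABpIF/F gave 6 mitosis, 0 replication, 0 other mitosis and 1 other replication call with a mitosis median of -2.61, while ABpIF/+ against Ctrl gave 20 mitosis calls. Fitting the 2 mutant groups alone gave 11 other mitosis calls. The cause of these changes was not tested, apart from the strain fit, which sets 6 mice against 1, and the stricter and looser thresholds.

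Leaving out each mouse in turn gave 18 to 22 mitosis, 1 replication, 19 to 22 other mitosis and 5 to 8 other replication calls in ABpIF/+ against Ctrl, with medians of -2.22 to -1.75 for mitosis and -0.60 to -0.38 for replication. In ABpIF/F against Ctrl it gave 0 mitosis, 0 to 2 replication (2 without BG183), 2 other mitosis and 1 to 3 other replication calls, with medians of -0.08 (without BG38) to 0.32 and 0.32 to 0.58. In ABpIF/+ against ABpIF/F it gave 12 (without BG38) to 19 mitosis, 2 (without BG90) to 6 replication, 8 (without BG38) to 23 other mitosis and 4 to 6 other replication calls, with medians of -2.37 to -1.72 (without BG38) and -0.96 to -0.79. A fit to the other deposited table was not run, since its columns of these mice that could be matched were identical. No paired analysis was possible because the groups share no replicate numbers. Of the 29 mitosis genes in ABpIF/F against Ctrl, the 95% interval lay above a 2-fold lower level in 20 and below a 2-fold higher level in 15.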
